A study of Mus musculus with 6 samples.

Results

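The block described here is the megabase of mouse chromosome 11 from 113000001 to 114000000, counted from 1 and read as genome build GRCm39, which lies downstream of Sox9. Its members are the ATAC-seq peaks whose summit falls in that interval. They number 1975 over the 6 libraries, of 1455940 peaks listed in all. ATAC-seq marks open chromatin by where the Tn5 transposase can insert sequencing adapters. The cells were ATDC5, a single mouse line of chondrocyte precursors that forms cartilage-like cultures. They were sampled on 3 days: Day0, labelled control, and Day3 and Day10, labelled differentiation. Per the labels' protocols, cells of all 3 days were spotted as dense droplets, and medium with bGP and ascorbate-2-phosphate was added to differentiate them. No genotype, transgene or drug besides that medium is named, and each day has 2 independent biological replicates.

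Sox9 is the transcription factor on which cartilage formation depends, and it is known for regulatory elements spread over very long distances on both sides of the gene. Beyond it, in the gene order of the RefSeq table for GRCm38.p6, follow Slc39a11, which encodes a zinc transporter of the ZIP family, Sstr2, which encodes a receptor for somatostatin, and Cog1, which encodes a subunit of a Golgi tethering complex. After Fam104a, D11Wsu47e and Cpsf4l come Cdc42ep4, which encodes an effector of the small GTPase Cdc42, and Sdk2, which encodes a cell adhesion molecule of the immunoglobulin superfamily. Open sites away from gene starts often act as enhancers or boundaries, and accessibility does not show which gene a site serves. No gene annotation of the lists' build was used here, so no region is assigned to a gene, and the labelled cell type was not checked against its markers.

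The block was chosen on these libraries for its density of regions that opened by Day10. Its Day10 values are therefore a description and carry no test. With 2 libraries against 2, an exact permutation test could not go below a two-sided p of 0.333 in any case, so none is given for the other days either. The 44 gained regions defined below that led to the choice were matched by 1 of the 2318 megabases that held a region and exceeded by none, and the median megabase held 2. The block is also dense in regions, with 109 against a median of 27, and of the 611 megabases with 50 or more regions, 1 had a higher share gained.

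The lists differ in length and background. They held 164642 to 177751 peaks at Day0 and Day3 and 381376 and 390100 at Day10. The background pileup recovered from the authors' folds was 0.717 to 0.799 at Day0 and Day3 and 1.08 and 1.15 at Day10. How this bears on which weak peaks were listed was not tested. The smallest fold listed anywhere was 3.50 and 3.47 in the Day0 lists, 3.34 in each Day3 list, and 2.88 and 2.79 in the Day10 lists. Peak names hold the word lysis in the Day3 lists alone and the letters S2 in the Day10 lists alone, so the day and a difference in how its libraries were made or run cannot be told apart. Total read numbers were not used here.

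The block held far more listed peaks at Day10 than on the earlier days. It contained 127 and 130 peaks at Day0, then 166 and 167 at Day3, and finally 688 and 697 at Day10. Both Day10 libraries thus stood far above the other 4, and the replicates of each day differed by at most 9 peaks. The mean count was 5.39 times as high at Day10 as at Day0, while the whole lists were 2.34 times as long. Listed peaks covered 4.51% and 4.59% of the block's bases at Day0. The covered part was 5.61% and 5.52% at Day3 and reached 20.8% and 21.9% by Day10.

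The rise was also seen among strong peaks alone. The authors' fold fitted the pileup at the summit plus 1, divided by the background of the same library plus 1. A fold of 15 therefore stands for a larger pileup at Day10, where the background was higher. A mean of 44.5 peaks of the block had a fold of 15 or more at Day0, 38.5 at Day3 and 112.5 at Day10. The 2 libraries of a day differed by 1 peak in this count. This is 2.53 times as many at Day10 as at Day0, against 1.09 times over the whole lists. When each library was held to its 50000 strongest peaks by the authors' -log10 p, the block held 40 in each Day0 library, then 38 and 39 in the Day3 pair, then 101 and 95 in the Day10 pair. The block's share of the strongest peaks was thus 2.45 times as high at Day10 as at Day0 and 0.963 times as high at Day3. At Day3 the direction depended on the cutoff, and it was 1.05 times as high among the 25000 strongest and 1.20 times among all listed peaks.

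**Figure D1:**
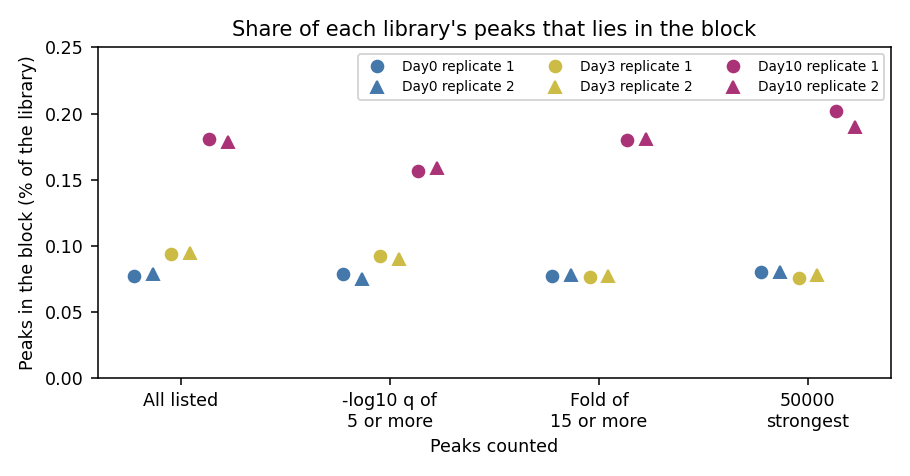
Percent of each library's peaks with a summit in the block, for 4 ways of counting peaks, with 1 point per library (circles replicate 1, triangles replicate 2). The Day10 libraries lie between 0.157% and 0.202% in every count, and the Day0 and Day3 libraries between 0.0750% and 0.0945%.

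To follow single sites across days, windows reaching 250 bases to each side were set on the summits of each library's 50000 strongest peaks. A region was called gained at Day10 when its best peak ranked 50000 or better in both Day10 libraries and worse than 100000, or was not listed, in both Day0 libraries. Lost regions met the mirrored rule. The rule had to hold both for peaks with a summit in the window and for any peak overlapping it. Kept regions held a summit within the 50000 strongest in all 6 libraries. Over the genome this gave 78698 regions, of which 109 lay in the block, and 353 of the 1975 member peaks were among the 50000 strongest of their library. A site strong at Day10 alone enters through that day and had to differ from the others, so counts over these regions describe the block and do not support its choice.

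Of the 109 regions, 44 were gained at Day10 against Day0, 3 were lost, 28 were kept on all 3 days and 34 met none of these rules. Gained regions made up 40.4% of the block and 10.7% of all regions. Lost regions made up 2.75% of the block and 7.99% of all regions, and kept regions 25.7% and 32.7%. Against Day3, 37 regions of the block, or 33.9%, were gained at Day10, beside 7.72% of all regions, and 1 was lost, beside 3.16%. Between Day0 and Day3 no region of the block was gained or lost by both rules, where the background is small as well, 0.543% gained and 0.513% lost. By the summit alone 1 region was lost at Day3, beside 1.72% of all regions, and 0 were gained, beside 1.17%.

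**Figure D2:**
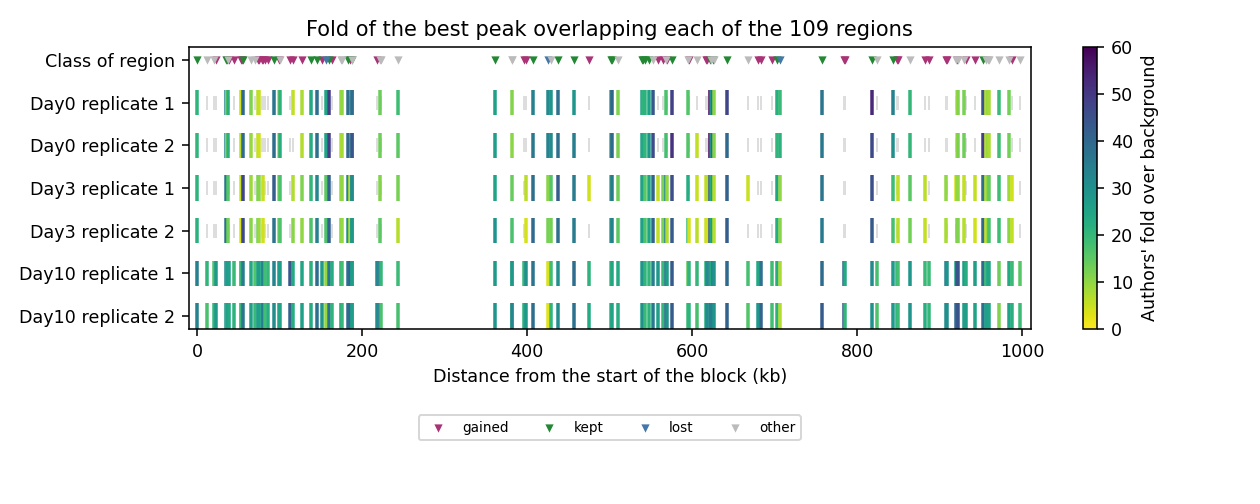
The 109 regions by distance from the start of the block in kilobases, 1 row per library, coloured by the authors' fold of the best overlapping peak, with short grey marks where no peak is listed; triangles in the top row give the class. All grey marks lie in the Day0 and Day3 rows, and an empty stretch of 118 kilobases separates 243 from 361 kilobases.

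The best ranked gained region lay in the second 100 kilobases, from 113112087 to 113112587. All 4 earlier lists lacked it, and its folds were 43.7 and 41.4 at Day10. These put it at ranks 1035 and 2757 there. A region from 113783570 to 113784070 was likewise absent from all 4 earlier lists, with Day10 folds of 39.8 and 43.2. So was that from 113682705 to 113683205, with 37.9 and 40.9. These Day10 folds exceed the median of the block's kept regions on the same day, which was 32.1 and 30.9.

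Other strong gains were already listed weakly at Day3. From 113185396 to 113185896 no peak was listed at Day0, the folds were 5.56 and 6.67 at Day3, and they were 40.8 and 40.0 at Day10. From 113079067 to 113079567 the Day3 folds were 5.00 and 4.45 and the Day10 folds 33.6 and 34.9, again with nothing listed at Day0. The window from 113920980 to 113921480 was listed in every library, with folds of 4.08 and 5.20 at Day0, then 9.45 and 11.1, then 42.7 and 39.5. In this last region the Day3 values lie between those of Day0 and Day10, which the call rule itself keeps apart.

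The rest of the 12 best ranked gains had Day10 folds from 27.8 to 33.1. From 113907549 to 113908049, nothing was listed at Day0, and the folds were 10.0 and 7.78 at Day3 and 33.1 and 31.6 at Day10. Its neighbour from 113908533 to 113909033, less than 1 kilobase away, was absent from all earlier lists and had folds of 29.3 and 30.2 at Day10. The pair thus differed at Day3 and was alike at Day10. Regions from 113218303 to 113218803, with Day10 folds of 31.7 and 30.7, and from 113023204 to 113023704, with 27.8 and 27.9, were also absent before Day10. At 113618004 to 113618504 the folds were 6.67 and 4.45 at Day3 and 30.7 in both Day10 libraries. At 113398910 to 113399410 a summit was listed at Day3 in replicate 2 alone, with a fold of 3.89, while a peak of fold 6.12 overlapped the window in replicate 1, and the Day10 folds were 30.2 and 27.9. Neither of these last regions had a peak at Day0.

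As a group, the 44 gained regions had a lowest, median and highest fold of 17.8, 24.5 and 43.7 in Day10 replicate 1 and of 18.1, 25.1 and 43.2 in replicate 2. At Day0 only 9 and 7 of them were overlapped by a listed peak, with folds from 4.04 to 7.57. At Day3 22 were listed in each library, with folds from 3.89 to 12.8. Their Day10 peaks were about as wide as those of the kept regions, with medians of 784 and 785 bases against 771 and 860. The fold of a region listed in both replicates differed between them by a median of 0.08 on the log2 scale at Day0 and Day10 and 0.14 at Day3. The call rule itself bounds the folds of gained regions from below at Day10 and from above at Day0. At rank 50000 the fold was 17.8 and 17.7 in the Day10 lists, and at rank 100000 it was 7.57 and 7.51 in the Day0 lists.

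**Figure D3:**
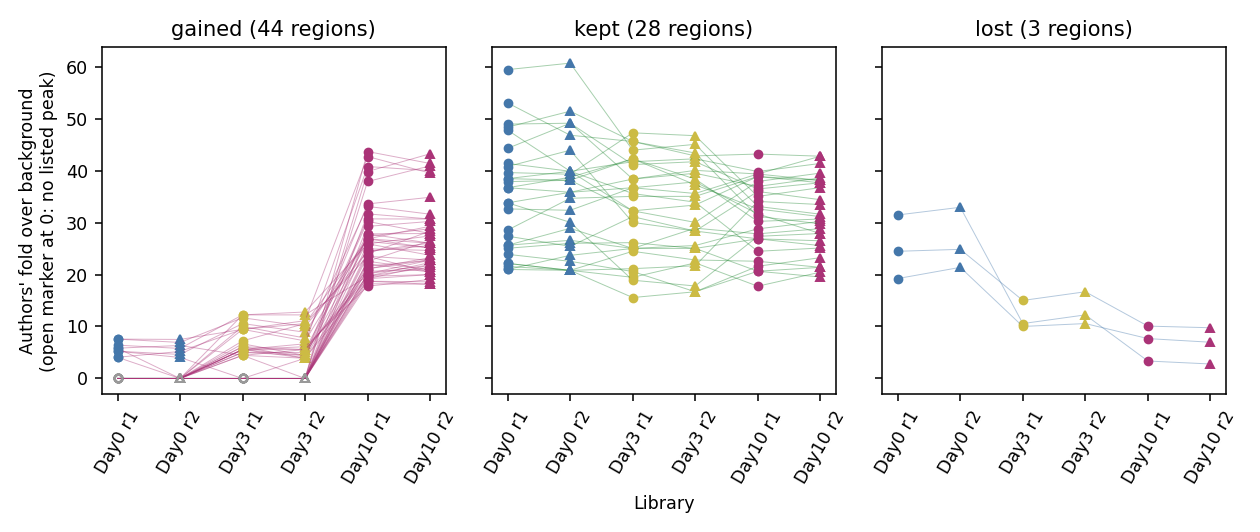
Authors' fold over background of the best overlapping peak in each of the 6 libraries, for the 44 gained, 28 kept and 3 lost regions; a thin line joins the values of 1 region, and an open marker at 0 means that no peak was listed. Gained regions reach 17.8 to 43.7 at Day10 from at most 7.57 at Day0, while kept regions lie between 15.6 and 60.7 over the 6 libraries. The rank cutoffs of the calls keep Day0 and Day10 apart in gained and lost regions and set a floor for kept ones.

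Most of these gains were still outside the 100000 strongest peaks at Day3. Of the 44, 35 were out in both Day3 libraries by the overlap rule, or 79.5%, beside 66.3% of the 8449 gained regions of the genome. The other 9 were intermediate, or 20.5% beside 30.2%, and none was already strong, beside 3.48%. For 20 of them none of the 4 earlier lists held a peak, or 45.5% beside 37.6%. A further 13 were absent from both Day0 lists and listed in both Day3 lists, or 29.5% beside 26.6%, a share near that of the genome. The Day3 lists are 1.08 times as long as the Day0 lists, and the block's own peaks were 1.30 times as many. The part of list length in these counts was not tested.

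Only 3 regions of the block were lost at Day10. From 113425181 to 113425681 the folds were 31.5 and 32.9 at Day0, then 10.6 and 12.2 at Day3, then 3.36 and 2.79 at Day10. In the window from 113156392 to 113156892 they were 24.5 and 24.8, then 15.01 and 16.7, then 10.1 and 9.76, and this was also the region lost against Day3. From 113706447 to 113706947 they were 19.2 and 21.4, then 10.0 and 10.6, then 7.68 and 6.97. In all 3 the Day3 values lie between those of Day0 and Day10, which the call rule itself keeps apart. By the summit alone 6 regions were lost, or 5.50% beside 10% of all regions. The other 3, starting at 113099949, 113187980 and 113551712, were overlapped at Day10 by peaks with folds of 25.1 to 35.8 whose summits lay elsewhere.

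The 28 kept regions showed no common rise at Day10. Their median fold was 35.2 and 35.8 at Day0, 33.6 in each library of Day3, then 32.1 and 30.9 at Day10. On the log2 scale the difference Day10 minus Day0 had a median of -0.12 and ran from -0.89 to 0.69, beside a median of -0.23 over the 25716 kept regions of the genome. Of the 28, 19 lay above that genome median. Of the 28, 2 lay above the 95th percentile of the genome's kept regions and 1 below the 5th.

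The kept region with the best ranks ran from 113574707 to 113575207, with folds of 48.4 and 51.4 at Day0, then 45.6 and 42.8, then 43.2 and 42.8. From 113159641 to 113160141 they were 48.9 and 49.1, then 41.1 and 41.7, then 36.5 and 37.6. The window from 113055865 to 113056365 was highest at Day3, with 39.6 and 39.3, then 47.3 and 46.7, then 35.0 and 36.7. That from 113145556 to 113146056 was lowest at Day3, with 38.4 and 38.1, then 32.2 and 33.4, then 38.9 and 38.1. Regions from 113952055 to 113952555 and from 113642369 to 113642869 had folds between 38.1 and 49.1 in all 6 libraries.

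A further 3 regions fall outside the naming rule and were picked once their values were known. The strongest peak of the block at Day10 lay in the window from 113922250 to 113922750, with a fold of 44.6 in both libraries at ranks 655 and 1019. It was not called gained because its Day0 ranks were within the 100000 strongest; its folds were 11.7 and 12.1 at Day0 and 10.0 and 11.7 at Day3. From 113567641 to 113568141 the folds were 16.9 and 17.9 at Day0, then 32.8 and 35.6, then 36.9 and 38.6, so most of that increase was present by Day3. The strongest peak of the block at Day0, from 113620743 to 113621243, went the other way, from 59.4 and 60.7 to 43.9 and 45.0 at Day3 and 33.1 and 31.6 at Day10, while it stayed within the 50000 strongest throughout.

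The 34 regions outside these classes mostly had higher folds at Day10 than at Day0. A region that entered through a Day10 peak alone tends this way by its entry, and the block was chosen for Day10 gains. The counts that follow therefore describe the block and do not support its choice. In 27 of them, or 79.4%, both Day10 folds lay above both Day0 folds, with a region that has no listed peak counted as lowest, beside 42.1% of the regions of this kind in the genome. The reverse held in 4, beside 44.5%. Over all 109 regions the Day10 folds lay above the Day0 folds in 77, or 70.6% beside 36.4%, and below them in 22, or 20.2% beside 51.3%. Between Day0 and Day3 the 2 directions were more even. The Day3 folds were above in 34, or 31.2% beside 27.1% of all regions, and below in 29, or 26.6% beside 47.6%.

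Every one of the 10 sub-blocks of 100 kilobases held at least 1 gained region, but their numbers differed widely. With the grid moved by 50 kilobases, 8 of the 9 whole windows held one. The first held 13 gained of 22 regions, the second 6 of 16 and the last 6 of 16. The third, the fourth and the fifth, from 200 to 500 kilobases, held 1, 2 and 1 gained of 4, 5 and 6 regions. From 500 to 900 kilobases the sub-blocks held 4, 5, 2 and 4 gained of 15, 12, 5 and 8. The share gained was highest in the first sub-block at 59.1% and lowest in the fifth at 16.7%, and these shares rest on few regions each. Neighbouring sub-blocks are not replicates of each other.

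**Figure D4:**
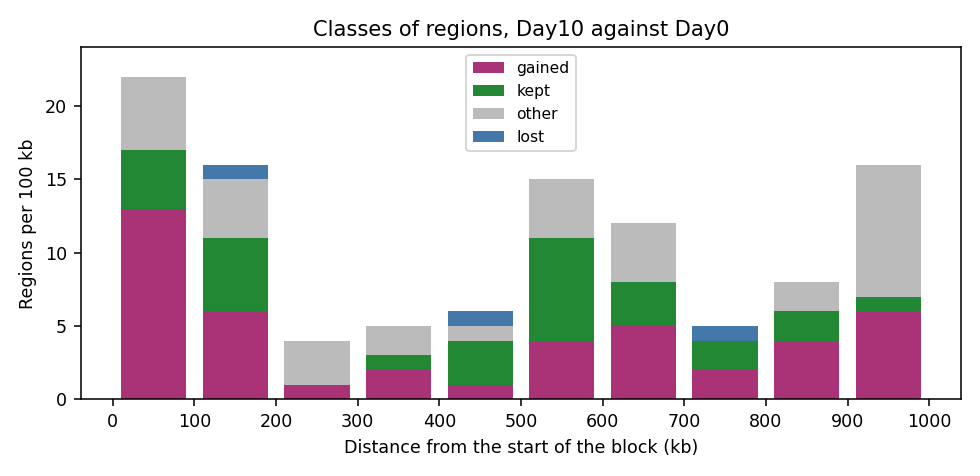
Number of regions per 100 kilobases by class of change between Day0 and Day10, against distance from the start of the block. The first sub-block holds 13 gained regions, and the third and the fifth hold 1 each.

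The sub-blocks also differed in what was open beforehand. The sixth held 7 kept regions, the most of any, and 4 gained. The last held 1 kept, 6 gained and 9 unclassed regions, and the third held no kept region. From 600 to 900 kilobases all 11 gained regions were still out at Day3, as were all those of the third, the fourth and the fifth. Of the 13 in the first, 10 were out. In the second, the sixth and the last, 4 of 6, 2 of 4 and 4 of 6 were out.

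The fifth, the sixth and the ninth sub-block hold none of the 12 best ranked gains, and their own best ranked gains follow. The best of the fifth ran from 113474516 to 113475016, with a fold of 4.45 in Day3 replicate 1 alone and of 21.1 and 23.2 at Day10. In the sixth it ran from 113569093 to 113569593, with 9.45 and 7.23 at Day3, then 26.9 and 29.3 at Day10. The ninth had its best from 113848266 to 113848766, with 21.6 and 22.8 at Day10 and nothing listed earlier. None of the 3 was listed at Day0.

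Listed peaks of any strength were more frequent at Day10 in all 10 sub-blocks. The eighth went from 4 peaks in each Day0 library to 6 in each Day3 library and 51 and 56 at Day10, a ratio of 13.4 between Day10 and Day0. The ninth went from 7 and 8 to 11 and 10 and then 72 and 76, a ratio of 9.87. The ratio was lowest in the fourth, with 9 and 8, then 13 and 15, then 27 and 28 peaks, which gives 3.24. The first held 22 peaks in each Day0 library, then 27 and 28, then 119 and 117, which was the most of any sub-block at Day10. The sixth held the most at Day3, with 36 and 37 peaks against 22 and 23 at Day0. All Day10 counts exceeded the Day0 and Day3 counts of the same sub-block.

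**Figure D5:**
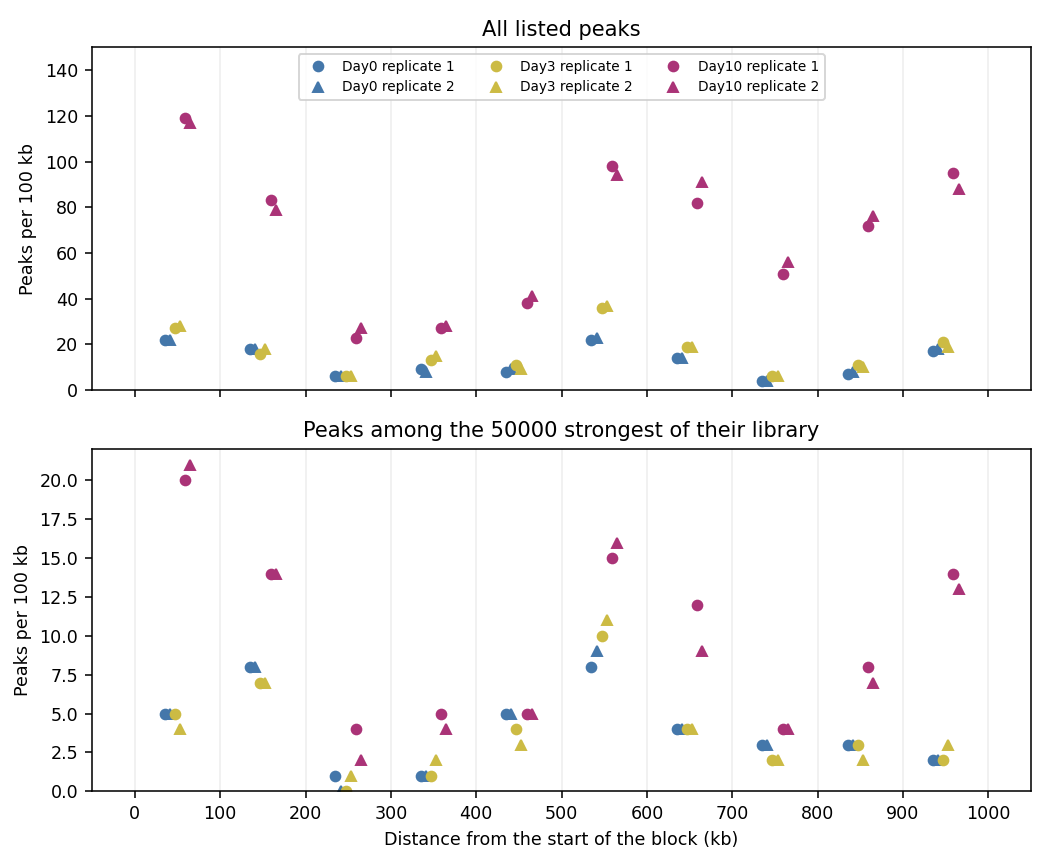
Peaks per 100 kilobases in each library, over all listed peaks (top) and over the 50000 strongest of each library (bottom), against distance from the start of the block; circles are replicate 1 and triangles replicate 2. Day10 points lie highest in every sub-block of the top panel, and in the fifth sub-block of the bottom panel they equal the Day0 points at 5.

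Gained regions lay close together. The median distance from a gained region of the block to the nearest other gained region was 3.97 kilobases, beside 25.8 over the genome, and 30 of the 44, or 68.2%, had another within 10 kilobases, beside 30.7%. A block picked for many gains has short distances by construction. The longest run of neighbouring regions that were all gained numbered 6 and stretched from 113073267 to 113085693 in the first sub-block. Within it, 2 regions were intermediate at Day3, with folds between 8.90 and 12.8, and of the other 4, 3 had no listed peak before Day10. The median distance from a gained to the nearest kept region was 10.6 kilobases, beside 15.8 over the genome. The block held 109 regions of any class against a median of 27 per megabase, and the part of this density in that distance was not tested.

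Counting every member without a cutoff on strength, the 1975 peaks overlapped into 726 intervals. Of these, 401, or 55.2%, were listed in both Day10 libraries and no other, beside 35.0% of the 439652 intervals of the genome. A further 173 were listed in 1 Day10 library alone, or 23.8% beside 19.1%. Intervals listed in all 6 libraries numbered 82, or 11.3% beside 22.1%, and 26, or 3.58% beside 4.1%, were listed in both Day3 and both Day10 libraries and not at Day0. Only 7 were listed at Day0 and not at Day10, or 0.964% beside 7.0%. The Day10 lists are 2.34 times as long as the Day0 lists, and the part of list length in these patterns was not tested.

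The megabases on both sides were less dense in gains than the block, a contrast that the choice of the block builds in. Their shares gained were above the 10.7% of all regions. The one before the block, nearer Sox9, held 73 regions with 16 gained, or 21.9%, and 5 lost, or 6.85%. The one after it held 55 regions with 8 gained, or 14.5%, and 1 lost, or 1.82%, beside 7.99% lost of all regions. Kept regions made up 30.1% and 30.9% there, beside 32.7% of all regions. The lower edge of the block cuts through an open stretch. The first region inside, from 112999912 to 113000412, was kept, with folds of 21.0 and 20.8 at Day0 and 34.1 and 33.5 at Day10. The last outside, from 112998651 to 112999151, had 15.1 and 15.6 at Day0 and 34.5 and 32.1 at Day10. At the upper edge, the last region inside, from 113996555 to 113997055, was listed at Day10 alone, with 15.8 and 19.1. The next, from 114043497 to 114043997, had 16.9 and 15.02 at Day0 and 34.1 and 34.4 at Day10.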

How the data were processed

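The authors deposited a narrowPeak list for every library, made from single-end reads without pooling. Trim Galore, a read trimmer, appears among the tools in the submitters' processing notes. Which aligner and caller were used, and whether reads were shifted for Tn5, is not given in the sources used here. A deposited row gives the authors' score, their -log10 p and -log10 q, the fold ratio and the summit. The folds fitted (pileup + 1) / (background + 1) with whole pileups within 0.001 in 100% of peaks.

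The processing notes name mm10, but scaffold names in the lists belong to GRCm39. Of 21887 protein-coding genes of the GRCm38.p6 table, 7.66% to 7.75% had a strong summit within 500 bases of an end, and 5.37% to 5.57% after a shift of 1 megabase. Positions are therefore read as GRCm39, counted from 1 for regions, and were not converted. No sequence of that build was used here, so none is printed.

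Peaks on chromosomes 1 to 19, X and Y were ranked by -log10 p, then fold, then position. Windows overlapping a better ranked one were dropped. Pileups are whole numbers, so 1666 to 2061 peaks per library tie at rank 50000. The calling steps were run on simulated lists without a gap between the strong and the weak rank. The ranks used here were not tested in that way. Python 3.11.15, numpy 2.4.6 and pandas 2.3.3 were used. The named regions are the 12 best gained by the worse Day10 rank, the best gained of each sub-block, all lost and the 6 best kept. The block, rules and named regions were chosen with earlier results of these data known. Alternatives covered the call rule, ranks, region width, fold and -log10 q cutoffs, the sub-block grid and each library left out.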

Additional observations from a re-analysis of the deposited data

How the results depend on the processing

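Some settings could not move a count: a Day3 library left out cannot alter the calls of Day10 against Day0, nor a Day0 library those of Day10 against Day3. A minimum -log10 q of 5 left 109 regions and moved no count. These say nothing about stability. The gained count at Day10 against Day0 was 41 to 56 under all settings but 1, and its share of the block's regions was 34.9% to 51.4%, beside 9.33% to 18.1% of all regions. With a strong rank of 25000 and a weak rank of 50000, which leaves 63 regions, 22 were gained and 1 lost against Day0, 20 gained and 0 lost against Day3, 20 of the gained were out at Day3, 15 were kept, and 1 was lost at Day3 against Day0, and 8 of the 10 sub-blocks held a gain. By the summit alone the lost counts were 6 against Day0 and 3 against Day3, and 1 at Day3 against Day0. By the authors' fold, with 15 as strong and 7.5 as weak, they were 1 against Day0 and 0 against Day3. Without a gap between ranks, 1 region was gained and 2 lost at Day3 against Day0, and 2 were lost at Day10 against Day3. At a strong rank of 75000 and a weak rank of 150000, 2 were gained at Day3 against Day0. The cause of these shifts was not tested.

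The Day10 share of peaks, 2.45 times that of Day0, was 2.10 times among the 100000 strongest, 2.30 among all listed, 2.33 at a fold of 15 or more, 2.05 at a -log10 q of 5 or more, and 2.82 by covered bases. The Day3 ratio of 0.963 was 1.05 among the 25000 strongest, 1.10 among the 100000 strongest, 1.20 among all listed, 0.994 at a fold of 15 or more and 1.19 at a -log10 q of 5 or more, so no direction is given for Day3. Leaving out each library in turn gave 44 to 52 gained and 3 lost against Day0, 37 to 45 gained and 1 lost against Day3, 28 to 31 kept, and share ratios of 2.38 to 2.53 at Day10 and 0.950 to 0.975 at Day3. A library left out removes a condition, so counts of calls could only rise. No paired analysis was possible because these results come from no test. The lists limit what a missing peak means: the smallest fold listed at Day0 was 3.50 in replicate 1 and 3.47 in replicate 2. How sequencing depth bears on this was not tested.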
